A study of Homo sapiens with 6 samples.

Results

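The kallikreins, the clade B serpins and the SPINK inhibitors are 3 families of human genes for secreted serine proteases and for the inhibitors that hold serine and cysteine proteases in check. They were followed here in MCF10A, an established non-tumorigenic line of human mammary epithelial cells. Members were taken by name: protein-coding rows of the first deposited table whose symbol is KLK, SERPINB or SPINK followed by digits. The rule found 35 of 52401 genes: 15 kallikreins, 12 clade B serpins and 8 SPINK genes. 2 lines were compared, with 3 libraries each. The control line carries mCherry from 1 retroviral vector and was selected with puromycin. The flotillin line carries flotillin-1-HA and flotillin-2-mCherry from 2 retroviral vectors and was selected with puromycin and hygromycin. Both lines were grown in medium with horse serum, insulin, EGF, hydrocortisone and cholera toxin, per the labels' protocols. Flotillin level, vector number and hygromycin selection differ together between the lines and cannot be told apart. The labels do not state whether the 3 samples of each line were grown as separate cultures; the p-values therefore reflect only the spread among these samples, and that spread may be technical.

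Kallikreins are trypsin- or chymotrypsin-like serine proteases that are secreted as inactive precursors and can activate each other. In stratified epithelia KLK5 and KLK7 cleave the desmosomal cadherins that hold cornified cells together, and LEKTI, the multidomain product of SPINK5, inhibits them. Clade B serpins are mostly intracellular. Each presents a reactive loop to its target protease and traps it, and the family includes inhibitors of elastase and cathepsin G, of papain-like cathepsins, of granzyme B and of urokinase. In mammary tissue SERPINB5, known as maspin, is a myoepithelial marker.

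The deposited tables give group means. Each mean was stored with 15 significant digits, from which the whole reads of the 3 libraries behind it were recovered for all 35 members. No replicate number comes with the recovered libraries, so they are named library 1, 2 and 3 of a group by falling size factor. Values below are normalized counts (reads divided by the library's size factor, close to 1 read each), with SDs over the 3 libraries. Recovered depth ran from 18595015 to 19740387 reads per library. A member fell or rose where the authors' first deposited table lists an adjusted p below 0.05. Across all 19733 genes with an adjusted p there, 12.0% were lower and 11.6% higher in the flotillin line. FLOT1 was 11.4-fold and FLOT2 11.01-fold higher in the flotillin line between the group means. The basal keratin gene KRT5 had authors' means of 48381 in control and 67351 in flotillin cells, while 7 of 10 basal epithelial markers fell, among them TP63. Library 3 of both groups stood apart in cell cycle genes: the summed level of 14 such genes was 7544, 16580 and 71671 in control libraries 1 to 3, and 20097, 18544 and 83591.5 in flotillin libraries 1 to 3.

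In each of the 3 families at least 1 member fell in the flotillin line, and no member taken by name rose. SPINK5L3, a SPINK gene outside the rule by name, passed as higher (adjusted p = 0.0107 in the authors' deposited table). Of the 21 members with an adjusted p, 12 fell and 0 rose: 7 of 7 kallikreins, 4 of 11 clade B serpins and 1 of 3 SPINK genes. At an unadjusted p under 0.05 in the authors' deposited table, 16 members were lower and 1, SERPINB1, was higher. The share of all genes at that threshold was not counted. The median log2 fold change in the authors' deposited table was -2.18 over the 21 members and -0.04 over all 19733 genes. The other members were 6 with no read in any library and 8 with too few reads for an adjusted p. Among the 19 members whose mean reached 10 in either group, every flotillin library lay below every control library for 13, and above for 0. Of 16574 genes with such a mean, 21.6% lay wholly below and 23.9% wholly above. Of the 13 members, all but SPINK5 and SERPINB9 reached a mean of 10 in control cells only, the 7 kallikreins that fell among them. Their entry thus rested on the group where they are high, so the count of 13 is a description and not a test. In bulk RNA, fewer cells of a type and less RNA per cell cannot be told apart.

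**Figure D1:**
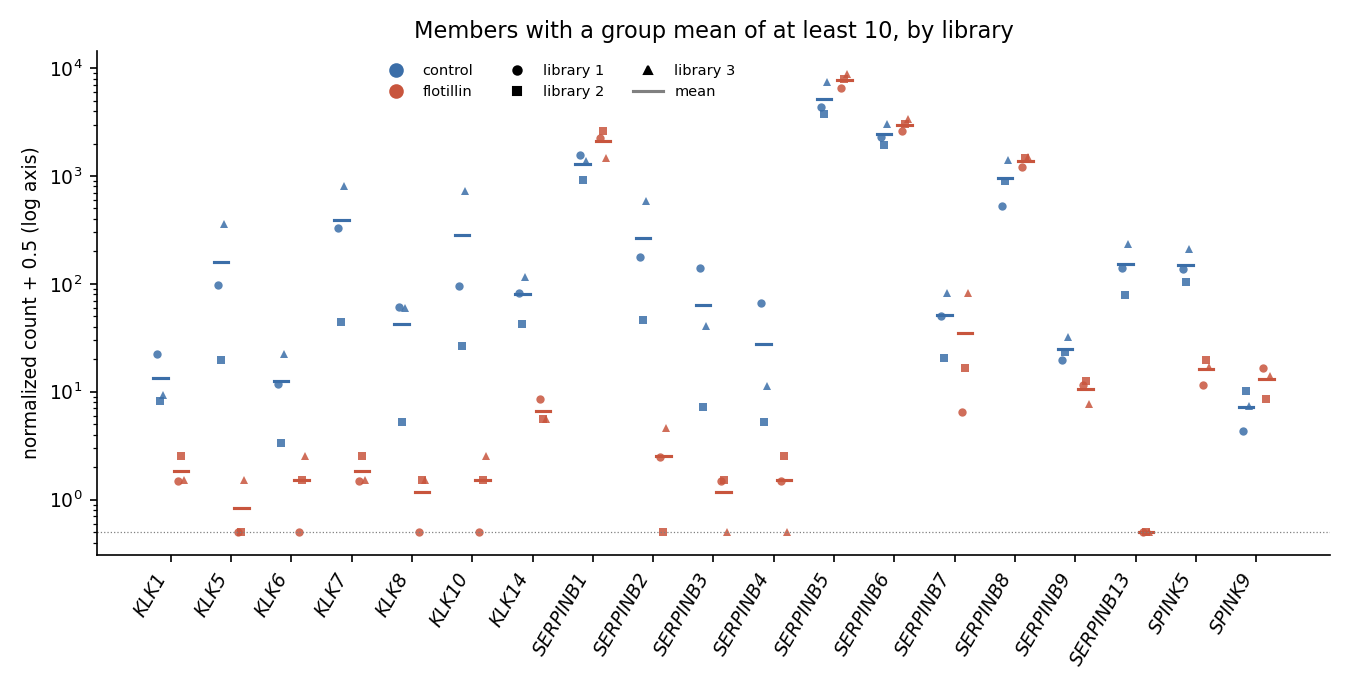
Normalized count plus 0.5 on a log axis for the 19 members with a group mean of at least 10, control in blue and flotillin in red, with 1 symbol per library and a bar at each group mean; the dotted line marks 0 reads. The kallikreins reach at most 8.0 in flotillin libraries, while SERPINB1, SERPINB5, SERPINB6 and SERPINB8 stay at 526.5 or more in all 6 libraries.

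KLK7, the chymotrypsin-like kallikrein of the stratum corneum, was the most abundant kallikrein of control cells. It stood at 327, 44.0 and 811 in control libraries 1 to 3 and at 1.00, 2.03 and 1.03 in flotillin libraries 1 to 3. The groups did not overlap, and even the lowest control library lay far above the highest flotillin library. KLK7 fell 291-fold between the group means (394 ± 388 to 1.35 ± 0.58, SD, n = 3). The authors' deposited table gives a moderated log2 fold change of -4.11 (adjusted p = 2.93e-07), and limma on the recovered libraries gave -6.63 with an SE of 0.97 (adjusted p = 0.00558).

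KLK5 encodes the trypsin-like kallikrein that can start the activation cascade of the skin enzymes. Its control libraries held 96.8, 19.1 and 359 normalized counts, and the flotillin libraries held 0, 0 and 1 reads. With 1 read left, the ratio of control to flotillin was 462 with an exact 95% interval of 82.5 to 18289, which covers counting error only. KLK5 fell with a log2 fold change of -3.004 in the authors' deposited table (adjusted p = 0.000599).

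KLK10 encodes a kallikrein with little known protease activity that is often silenced in breast tumours. It lay at 95.8, 25.8 and 732 in control libraries, so a single library held most of its reads, and at 0, 1 and 2 reads in flotillin libraries. The ratio of reads was 275 (exact 95% interval 93.9 to 1338), and KLK10 fell in the authors' deposited table (log2 fold change -2.67, adjusted p = 0.00285). KLK8, neuropsin, a trypsin-like enzyme of brain and skin, stood at 60.7, 4.78 and 59.2 in control and had 0, 1 and 1 reads in flotillin libraries. Control library 2 was far below the other control libraries. Its ratio was 61.3 (exact 95% interval 16.6 to 512), and its log2 fold change in the authors' deposited table was -3.57 (adjusted p = 4.92e-06). In limma KLK10 lost the call without flotillin library 1 (adjusted p = 0.0645), and KLK8 lost it without control library 1, flotillin library 1 or flotillin library 2 (adjusted p = 0.079, 0.0811 and 0.0689).

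KLK14, a trypsin-like enzyme able to activate other kallikreins, kept the most transcripts. It went from 82.5, 42.1 and 115 in control libraries to 8.0, 5.07 and 5.14 in flotillin libraries, a 13.1-fold fall (log2 fold change -3.22, adjusted p = 3.36e-09 in the authors' deposited table). Its groups were the tightest of the 7 kallikreins that fell, with a control SD of 45.5% of the mean. KLK1, the tissue kallikrein that releases kinins, was low in control, at 21.8, 7.65 and 8.89, and fell 9.46-fold, to 1, 2 and 1 reads in flotillin libraries (adjusted p = 0.00874 in the authors' deposited table). KLK6, a trypsin-like enzyme also made in the nervous system, had 12, 3 and 22 reads in control and 0, 1 and 2 in flotillin libraries, with a ratio of 11.7 (exact 95% interval 3.71 to 59.4, adjusted p = 0.0184 in the authors' deposited table).

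The remaining 8 kallikreins had few reads or none. KLK9, KLK11 and KLK13 were each detected in all 3 control libraries, with 5, 1 and 5 reads, 3, 1 and 6 reads, and 5, 1 and 8 reads in libraries 1 to 3, and had 0 reads in every flotillin library. Taking 3 reads over the group as the limit that a count of 0 allows, they were at least 3.50-fold, 3.20-fold and 4.47-fold lower. These folds leave out the counting error of the control reads. The authors' table gives KLK9, KLK11 and KLK13 no adjusted p, so they are not counted as falls. KLK4 had 1 read in all. KLK2, KLK3, KLK12 and KLK15 had no read in any library. Summed over all 15 genes, kallikrein transcripts came to 709, 150 and 2125 normalized counts in control libraries and to 10.0, 12.2 and 13.4 in flotillin libraries.

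The 15 kallikrein genes lie side by side on chromosome 19, from 51322404 to 51587502 in GRCh37. The 5 genes with the most control reads were KLK5, KLK7, KLK8, KLK10 and KLK14, and KLK5 (51446561 to 51456344), KLK6 and KLK7 (51479729 to 51487294) are direct neighbours. Of the 4 genes without reads, KLK2, KLK3 (prostate-specific antigen) and KLK15 lie together at the KLK1 end, and KLK12 lies between KLK11 and KLK13. Within 500000 bases of the cluster, 17 other protein-coding genes had an adjusted p in the authors' table. Of these 0 were lower and 2 were higher: ETFB, a subunit of a mitochondrial electron carrier, from 511 ± 220 to 1396 ± 8.2 (adjusted p = 0.00111), and JOSD2, a deubiquitinase gene, from 29.7 ± 16.2 to 77.9 ± 23.5 (adjusted p = 0.0329, SD, n = 3). The median log2 fold change in the authors' table was -3.004 for the 7 kallikreins and 0.10 for these neighbours.

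**Figure D2:**
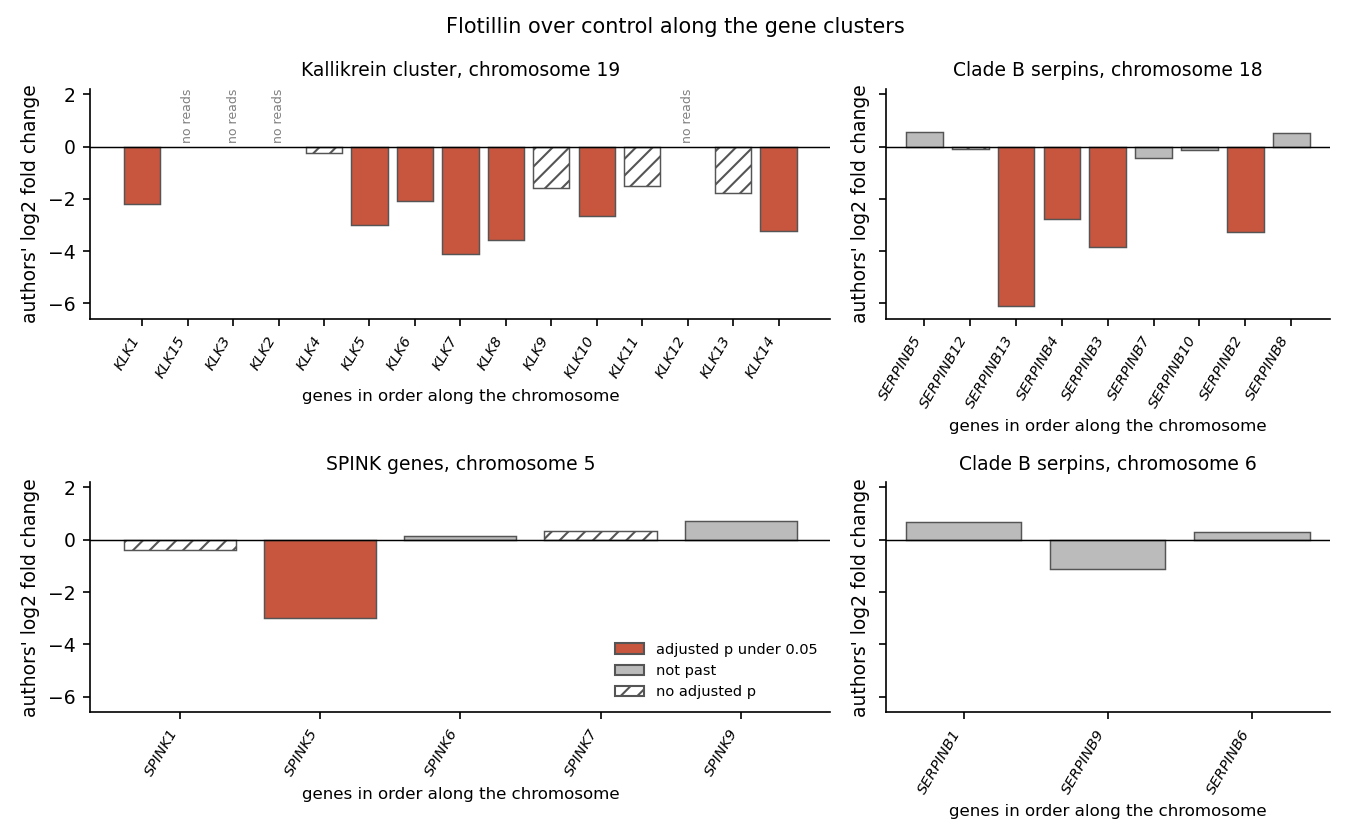
Log2 fold change (flotillin over control, from the authors' table) of members in their order along 4 chromosomes; red bars have an adjusted p under 0.05, grey bars do not, hatched bars have no adjusted p, and genes without reads are marked. On chromosome 19 every bar points down. On chromosome 18 the bars of SERPINB5 and SERPINB8 at the ends of the cluster point up. Those of SERPINB13, SERPINB4, SERPINB3 and SERPINB2 point down and are red. The short bars of SERPINB7, SERPINB10 and SERPINB12 also point down and are not red. SPINK7 and SPINK9 share 1 locus, so their order is not given by the table.

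The promoters of KLK5 and KLK7, the pair best known to act together, are shown as the 250 bases before the RefSeq start (GRCh38). Capitals mark matches, on either strand, to 5 short motifs: the E-box CAGGTG bound by ZEB and SNAI repressors, the AP-1 motif TGANTCA, the Grainyhead-like motif AACCGGTT, the TATA box TATAAA and the KLF and SP motif CCACCC. In KLK5 (chr19:50953039-50953288, minus strand) and KLK7 (chr19:50983918-50984167, minus strand) all capitals are the CCACCC motif, read from the other strand.
KLK5: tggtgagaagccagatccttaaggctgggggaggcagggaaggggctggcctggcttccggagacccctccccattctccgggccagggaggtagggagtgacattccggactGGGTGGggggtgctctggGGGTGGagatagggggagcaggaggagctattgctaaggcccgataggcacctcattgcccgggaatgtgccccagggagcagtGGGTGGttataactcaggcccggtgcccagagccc
KLK7: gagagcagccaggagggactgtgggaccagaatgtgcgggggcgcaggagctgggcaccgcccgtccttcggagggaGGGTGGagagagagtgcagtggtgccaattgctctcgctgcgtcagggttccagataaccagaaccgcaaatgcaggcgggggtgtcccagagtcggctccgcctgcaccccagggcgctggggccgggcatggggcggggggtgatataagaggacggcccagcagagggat

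Among 27305 promoters of the same length, 30.4% held the CCACCC motif, 17.5% the E-box, 11.1% the TATA box, 6.6% the AP-1 motif and 0.106% the Grainyhead-like motif. The table held a promoter for 32 of the 35 members, of which 9, 6, 8, 6 and 0 had these motifs in the same order. A match is a description of the letters, not of a bound site. Of the 7 kallikreins that fell, 5 have a promoter in the table, and of these KLK6 alone holds the E-box.

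Of the 11 clade B serpins with an adjusted p, 4 fell and 7 did not pass. SERPINB13, also called headpin, an inhibitor of cathepsins made in stratified epithelia, stood at 139.5, 78.4 and 236 in control libraries and had 0 reads in all 3 flotillin libraries. Against the limit of 3 reads over the group it was at least 149-fold lower, leaving out the counting error of its control reads. It had the lowest adjusted p of any member in the authors' deposited table (1.48e-20, log2 fold change -6.09). Limma gave a log2 fold change of -7.11 with an SE of 0.49 (adjusted p = 0.000266).

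SERPINB2, the plasminogen activator inhibitor PAI-2, is an inhibitor of urokinase. It lay at 176, 45.9 and 580 in control libraries and at 2.00, 0 and 4.11 in flotillin libraries. It fell 131-fold between the means (267 ± 278 to 2.04 ± 2.06, SD, n = 3, adjusted p = 0.00013 in the authors' deposited table). The control SD exceeds the mean, and library 3 alone held 587 of the 820 control reads.

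SERPINB3 and SERPINB4, the squamous cell carcinoma antigens, inhibit papain-like cathepsins and cathepsin G respectively. SERPINB3 stood at 140, 6.69 and 40.5 in control and had 1, 1 and 0 reads in flotillin libraries, a ratio of 93.2 (exact 95% interval 25.5 to 775, adjusted p = 7.13e-07 in the authors' deposited table). SERPINB4 stood at 65.5, 4.78 and 10.9 in control and had 1, 2 and 0 reads in flotillin libraries, a ratio of 26.9 (exact 95% interval 8.91 to 133, adjusted p = 0.00101 in the authors' deposited table). Both were highest in control library 1, unlike SERPINB2 and SERPINB13. In limma SERPINB3 (adjusted p = 0.0196) and SERPINB4 (adjusted p = 0.0449) each lost the call without flotillin library 1, 2 or 3, with adjusted p-values of 0.0667, 0.0652 and 0.0554 for SERPINB3 and of 0.109, 0.0925 and 0.110 for SERPINB4. Both also lost it without library 3 of both groups (adjusted p = 0.0604 and 0.0646 in limma), and without control library 1 both fell below the filter.

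These 2 genes are near-identical copies, and their reads are uncertain where counting could split them. Their coding sequences in GENCODE 29 have 1173 bases each and differ at 56, an identity of 95.2%. Of the distinct stretches of 50 bases in their transcripts, 23.3% of those of SERPINB3 and 23% of those of SERPINB4 occur in the other gene. The 60 bases that differ most are shown with differing bases in capitals. They are coding bases 952 to 1011 in exon 8 of 8, which also encodes the reactive loop, at chr18:63655819-63655878 for SERPINB3 and chr18:63637881-63637940 for SERPINB4 (GRCh38, minus strand).
SERPINB3: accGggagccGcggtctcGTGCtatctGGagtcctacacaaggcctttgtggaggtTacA
SERPINB4: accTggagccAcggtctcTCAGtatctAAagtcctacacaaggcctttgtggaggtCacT

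SERPINB5, maspin, had the most reads of all 35 members. It lay at 4390, 3722 and 7409 in control libraries and at 6520, 7934 and 8879 in flotillin libraries. The ranges overlap through control library 3. The ratio of flotillin to control means was 1.503, and the log2 fold change of 0.56 in the authors' deposited table had an adjusted p of 0.189.

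SERPINB1, an inhibitor of neutrophil elastase and cathepsin G, stood at 1567, 913 and 1388 in control libraries and at 2246, 2587 and 1452 in flotillin libraries (adjusted p = 0.113 in the authors' deposited table). SERPINB6, a broad intracellular inhibitor, stood at 2300, 1919 and 3051 in control and at 2600, 3036 and 3352 in flotillin libraries (adjusted p = 0.441 in the authors' deposited table). SERPINB8, an inhibitor of furin, stood at 526.5, 902 and 1421 in control and at 1201, 1463 and 1500 in flotillin libraries (adjusted p = 0.302 in the authors' deposited table). The groups overlapped for each of these 3 genes. In limma on the recovered libraries without library 3 of both groups, SERPINB1, SERPINB5 and SERPINB8 passed as higher, with log2 fold changes of 1.01, 0.83 and 0.94 and adjusted p-values of 0.0141, 0.00625 and 0.021. Of all genes in that fit 23.4% were higher, a larger share than 3 of 16 members, and 20.7% were lower beside 8 members. Without control library 3 alone, SERPINB5 (adjusted p = 0.0111) and SERPINB8 (adjusted p = 0.0195) passed in limma, beside 22.0% of all genes, and 10 members were lower beside 18.3%. With library 3 kept as a term in limma, SERPINB5 alone passed as higher (log2 fold change 0.64, SE 0.18, adjusted p = 0.0144), beside 24.6% of all genes, and 11 members were lower beside 21.5%.

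SERPINB7, a serpin of kidney and skin, had overlapping groups, with 50.3, 20.1 and 81.9 in control and 6.0, 16.2 and 81.2 in flotillin libraries (adjusted p = 0.666 in the authors' deposited table). Library 3 was highest in both groups. SERPINB9, the granzyme B inhibitor, had 20, 24 and 32 reads in control and 11, 12 and 7 reads in flotillin libraries; the groups do not overlap, and the adjusted p was 0.0787 in the authors' deposited table. It passed as lower in limma with library 3 as a term (adjusted p = 0.0306). SERPINB10 and SERPINB12 had 11 and 3 reads in control and 9 and 2 in flotillin libraries. SERPINB10 shares its locus in the second table with SERPINB2, and 18.5% of the 50-base stretches of its transcripts also occur in those of SERPINB2, so its reads are uncertain.

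9 of the 12 clade B serpins lie on chromosome 18 between 61143994 and 61672278 (GRCh37), and the other 3, SERPINB1, SERPINB9 and SERPINB6, on chromosome 6 between 2832566 and 2972399. All 4 that fell were on chromosome 18, and 0 of 3 passed on chromosome 6. On chromosome 18 the outermost genes, SERPINB5 (61143994 to 61172318) and SERPINB8 (61616535 to 61672278), did not pass. Between them SERPINB13 (61254223 to 61271873), SERPINB4, SERPINB3 and SERPINB2 fell. Also between them, SERPINB7 (61420169 to 61472604) and SERPINB10 did not pass (adjusted p = 0.666 and 0.914 in the authors' deposited table). SERPINB12, likewise inside the cluster, had no adjusted p. Within 500000 bases, 4 other genes had an adjusted p, and VPS4B, an ATPase of endosomal sorting, was higher, from 1496 ± 208 to 2512 ± 90.1 (SD, n = 3, adjusted p = 0.00569 in the authors' deposited table).

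The promoters of SERPINB13, which fell, and SERPINB5, which did not pass, are shown because the 2 genes lie on the same strand of the same cluster. In SERPINB13 (chr18:63587093-63587342, GRCh38, plus strand) the capitals are the E-box at position -136, the AP-1 motif at position -87 and the CCACCC motif at position -71, counted from the start site. In SERPINB5 (chr18:63476708-63476957, plus strand) they are the AP-1 motif at position -146 and the E-box at position -26. Both windows hold an E-box and an AP-1 motif, and of the 2 only that of SERPINB13 holds the CCACCC motif. Whether any of these motifs bears on the levels of the 2 genes was not tested.
SERPINB13: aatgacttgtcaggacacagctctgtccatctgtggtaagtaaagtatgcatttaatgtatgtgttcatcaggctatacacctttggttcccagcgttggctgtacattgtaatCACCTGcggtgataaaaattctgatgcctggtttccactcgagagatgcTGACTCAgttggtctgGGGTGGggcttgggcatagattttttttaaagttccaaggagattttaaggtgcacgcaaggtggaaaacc
SERPINB5: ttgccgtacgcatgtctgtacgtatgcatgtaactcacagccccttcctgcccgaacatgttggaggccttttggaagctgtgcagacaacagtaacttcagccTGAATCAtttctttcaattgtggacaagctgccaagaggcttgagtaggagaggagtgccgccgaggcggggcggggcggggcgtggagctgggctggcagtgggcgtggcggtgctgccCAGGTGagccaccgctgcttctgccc

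SPINK5, which encodes the kallikrein inhibitor LEKTI, was the only SPINK gene within the rule by name that passed. It stood at 138, 104 and 208 in control libraries and at 11, 19.3 and 16.4 in flotillin libraries. The groups were far apart, and the fall was 9.64-fold (150 ± 53.1 to 15.6 ± 4.2, SD, n = 3, adjusted p = 4.73e-12 in the authors' deposited table). Its control SD, 35.4% of the mean, was the smallest of the 12 members that fell. Limma gave a log2 fold change of -3.16 with an SE of 0.37 (adjusted p = 0.00216). The ratio of means was 9.64 for SPINK5 beside 462 for KLK5 and 291 for KLK7, proteases that LEKTI inhibits. KLK5 and KLK7 had 1 and 4 flotillin reads, and exact intervals for their ratios of reads were 82.5 to 18289 and 112 to 1059. The authors' deposited table gives moderated log2 fold changes of -3.002 for SPINK5, -3.004 for KLK5 and -4.11 for KLK7. In limma those of KLK5 and KLK7 were -6.14 and -6.63. The difference between genes was not tested.

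SPINK9, a kallikrein inhibitor of palm and sole skin, had 4, 10 and 7 reads in control and 16, 8 and 13 in flotillin libraries, with overlapping groups (adjusted p = 0.388 in the authors' deposited table). SPINK6, another inhibitor of skin kallikreins, had 1, 0 and 9 reads in control and 0, 2 and 10 in flotillin libraries, so library 3 held most of its reads in both groups. SPINK1, SPINK4 and SPINK7 had 2 reads each in all 6 libraries together. SPINK2 and SPINK8 had none.

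Levels of different genes can be compared only per length, which the second deposited table gives as FPKM per group. In control cells SERPINB5 (132 FPKM), SERPINB6 (72.1), SERPINB1 (52.2) and SERPINB8 (15.3) led the 12 clade B serpins, ahead of every kallikrein. The highest kallikrein, KLK7, stood at 9.11 FPKM, followed by KLK5 at 4.79, KLK10 at 3.84 and KLK14 at 2.92. SPINK5 at 4.07 FPKM held 77.1% of the SPINK total in control cells and 14.7% in flotillin cells, where SPINK9 at 1.16 FPKM led. The 15 kallikreins summed to 24.9 FPKM in control and 0.467 FPKM in flotillin cells, and KLK14 held 48.2% of the latter. The clade B serpins summed to 286 FPKM in control and 366 FPKM in flotillin cells, with SERPINB5 at 46.3% and 49.2% of the sum. The 4 serpins that fell were minor genes of the family in control cells, with SERPINB2 at 6.17, SERPINB13 at 3.16, SERPINB3 at 1.54 and SERPINB4 at 0.824 FPKM.

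**Figure D3:**
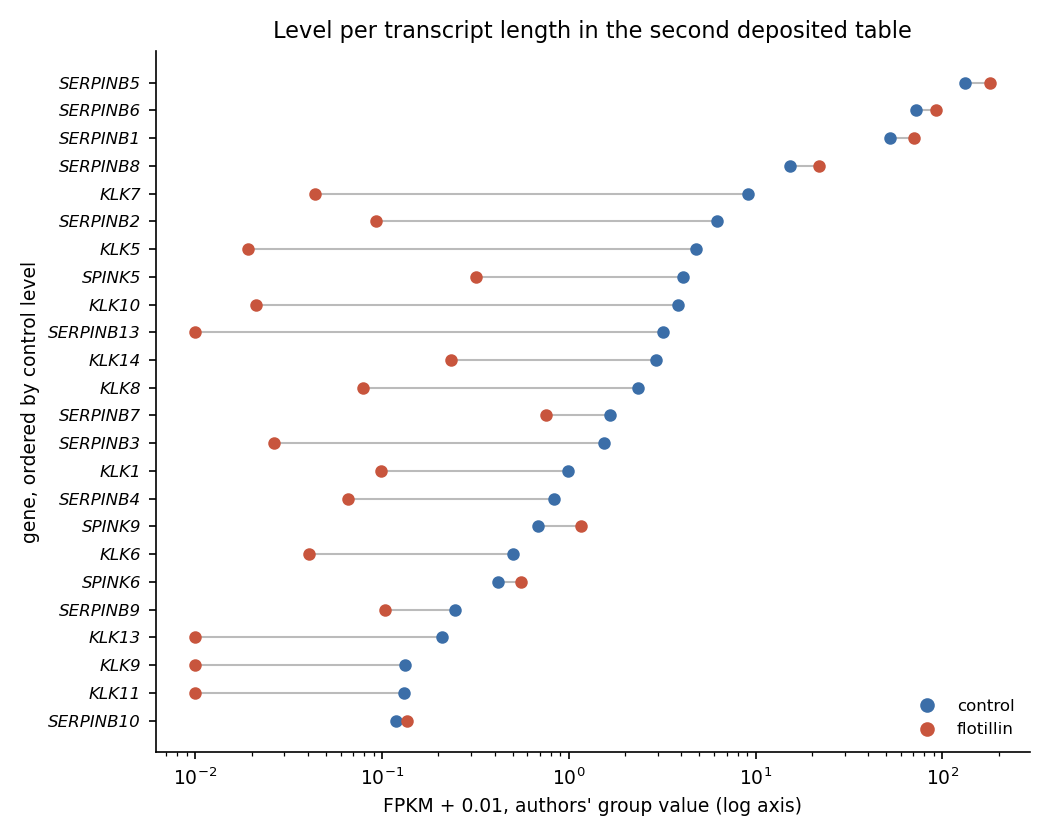
The authors' FPKM plus 0.01 on a log axis for members at 0.1 FPKM or more in either group, ordered by control level, with control in blue and flotillin in red. The 4 genes at the top, SERPINB5 to SERPINB8, lie close together in both groups, whereas KLK7 drops from 9.11 to 0.0335 FPKM.

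The members that fell varied widely among the control libraries. Control library 2 was the lowest of the 3 for 12 of 12 of them, and library 3 the highest for 8 of 12. Among 16067 genes with a control mean of at least 10, library 2 was lowest for 28.0% and library 3 highest for 41.8%. Of the 6 described members with such a mean that did not pass, library 2 was lowest for 4 and library 3 highest for 5. The ratio of highest to lowest control library ran from 2.00 for SPINK5 to 28.3 for KLK10, with 18.8 for KLK5, 18.4 for KLK7, 21.0 for SERPINB3 and 12.6 for SERPINB2. The median SD was 88.6% of the mean for the 12 members that fell, against 26.4% for the 16067 genes and 27.6% for the 2277 of them that fell.

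Among late keratinocyte differentiation genes, library 2 was the lowest for 9 of the 10 with a control mean of at least 10, with SPRR1B, a cornified envelope precursor gene, at 656, 29.6 and 407 in control libraries 1 to 3. KRT10 was the exception, highest in library 2 at 3880. The part of differentiation state in the spread of the members was not tested. Limma called the same 10 members lower with all libraries and without control library 2, beside 11.1% and 5.85% of all genes.

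**Figure D4:**
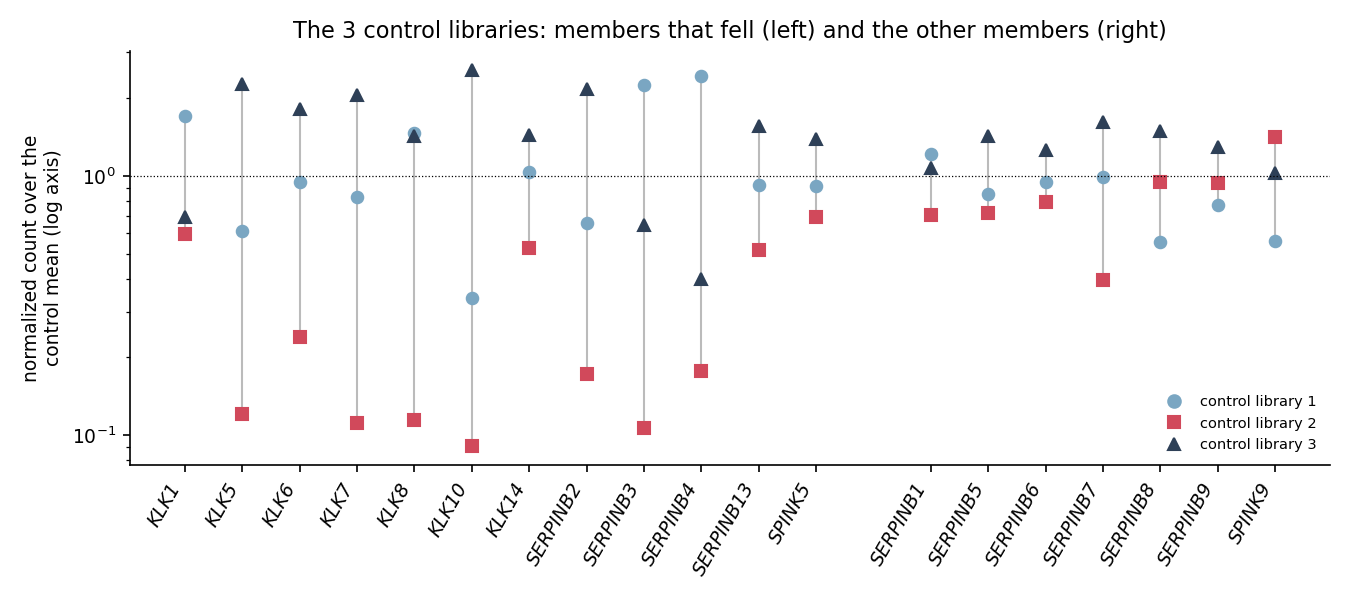
Normalized count of each control library over the mean of the 3, on a log axis, for the 12 members that fell (left) and the 7 other described members (right). Library 2, the red squares, is the lowest point of every gene on the left and the spread is widest for KLK10, where the highest library is 28.3 times the lowest.

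Calls differed between fits. Limma on the recovered libraries, restricted to 15905 genes with an overall mean of at least 10, held 16 members and called 10 of them lower and 0 higher, all 10 among the 12 falls above; 11.1% of its genes were lower and 12.2% higher. KLK1 and KLK6 were below its filter. The second deposited table tested 19 members and called 6 lower and 0 higher (10.0% and 6.94% of its 16996 genes): KLK1, KLK7, KLK14, SERPINB2, SERPINB13 and SPINK5. It gave q-values of 0.236 to 0.501 to KLK5, KLK6, KLK8, KLK10, SERPINB3 and SERPINB4. Its log2 fold changes for these 6 genes, -9.03, -3.998, -5.10, -8.42, -6.56 and -3.89 in the same order, were larger in size than the moderated ones of the first table. Limma's voom on the recovered reads, which weights each value by its expected precision, called 8 members lower and 0 higher, beside 10.6% and 12.0% of all genes. KLK10 (adjusted p = 0.0518) and SERPINB4 (adjusted p = 0.0616) did not pass in voom.

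In every list of related proteases, substrates and inhibitors more genes fell than rose, by as little as 1 to 0 for cysteine protease inhibitors. Across all genes with an adjusted p in the authors' deposited table, 12.0% were lower and 11.6% higher. Of 11 tested trypsin-like membrane and secreted proteases 7 fell and 0 rose, with a median log2 fold change of -1.85 in the authors' deposited table. ST14, matriptase, a membrane protease that can activate kallikrein precursors, went from 8196, 4725 and 9158 in control libraries to 355, 424 and 338 in flotillin libraries, a 19.8-fold fall (adjusted p = 5.25e-39 in the authors' deposited table). Its partner PRSS8, prostasin, fell 31.1-fold (1619 ± 845 to 52.0 ± 11.4, SD, n = 3). TMPRSS4 and PRSS22 fell from 20.2 ± 15.2 and 14.3 ± 16.6 to 1 read each over the 3 flotillin libraries.

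Other serine protease inhibitors gave 9 falls and 1 rise among 20 tested genes. PI3, the elastase inhibitor elafin, fell 80.9-fold (1342 ± 1218 to 16.6 ± 4.2) and A2ML1, a broad epidermal inhibitor, 42.1-fold (342 ± 286 to 8.11 ± 3.51, SD, n = 3); both were lowest in control library 2. SERPINF1, which encodes PEDF, a serpin without inhibitory activity, fell 29.6-fold. The rise was SERPINE2, protease nexin 1, an inhibitor of thrombin and urokinase outside clade B, which went from 340, 392 and 568 to 6260, 4834 and 7415, 14.2-fold higher (adjusted p = 3.88e-33 in the authors' deposited table). Of 11 tested proteases that clade B serpins inhibit, 4 fell and 1 rose. The falls were PLAU (3.99-fold) and PLAT (4.17-fold), the plasminogen activators that SERPINB2 inhibits, and the cathepsin genes CTSL2 (5.61-fold) and CTSH (2.23-fold). CASP4, an inflammatory caspase gene, was the rise. Of the leukocyte proteases in this list, CTSG, GZMA and GZMB had no read in any library, and ELANE, PRTN3 and GZMM had few, with no flotillin or control mean above 8.24.

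Kallikrein substrates gave 8 falls and 1 rise among 14 tested genes; the rise was FN1, fibronectin. By the authors' log2 fold change the 4 largest falls were those of cadherins: CDH1, E-cadherin, 223-fold lower between the means, DSG3 65.5-fold, DSC3 37.4-fold and DSC2 21.1-fold. IVL, involucrin, was 29.98-fold lower (40.8 ± 33.7 to 1.36 ± 1.57, SD, n = 3). Among the epidermal substrates LOR had no read, and CDSN, corneodesmosin, had a mean of 72.1 ± 25.6 in control cells and of 71.1 ± 28.1 in flotillin cells (SD, n = 3, adjusted p = 0.977 in the authors' deposited table). DSG1, a classical KLK5 substrate, had 3, 3 and 6 reads in control and 0 in flotillin libraries. F2RL1, the receptor PAR2 that KLK5 and KLK14 can activate, was lower by a log2 fold change of -1.31 in the authors' deposited table. Among 4 tested cysteine protease inhibitors 1 fell, CSTA, 3.01-fold.

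Marker lists moved beside the members. Of 12 tested late keratinocyte differentiation genes 5 fell and 0 rose. SBSN, suprabasin, fell 67.7-fold, and SPRR1A and SPRR1B fell from 63.3 ± 53.0 and 364 ± 315 (SD, n = 3) to 1 read each over the flotillin libraries. The summed level of the 17 genes was 4159 to 4614 in control and 764 to 2244 in flotillin libraries, much of it from KRT10, which did not pass (adjusted p = 0.541 in the authors' deposited table). Without KRT10 the sums were 2914, 734 and 3799 in control libraries 1 to 3 and 310, 368 and 249 in flotillin libraries 1 to 3, so control library 2 was again the low one. Epithelial markers gave 4 falls among 7 tested genes, with a summed level of 23845 to 33804 in control and 3498 to 3960 in flotillin libraries. Beside CDH1 these were ESRP1, an epithelial splicing regulator (249-fold), EPCAM, an adhesion molecule (56.9-fold), and OVOL1, from 91.8 ± 80.2 to 1 read over the flotillin libraries. KRT8, KRT19 and GRHL2 did not pass (adjusted p = 0.259, 0.445 and 0.849 in the authors' deposited table). The mean of KRT8 was 2043 ± 1589 in control and 3494 ± 237 in flotillin cells. Of 10 tested basal markers 7 fell and 0 rose, with TP63 69.0-fold, KRT15 36.6-fold, KRT17 19.2-fold and LAMA3 16.1-fold lower between the authors' means. KRT5, KRT6A and ITGB4 did not pass (adjusted p = 0.240, 0.0571 and 0.952 in the authors' deposited table). Immune cell markers gave 3 falls among 4 tested, CD14 (6.31-fold), CSF1R (3.87-fold) and ITGAM (20.1-fold). The other tested gene, CD68, had a mean of 753 ± 438 in control and 1309 ± 344 in flotillin cells. It did not pass (adjusted p = 0.189 in the authors' deposited table). The summed level of the immune list was 1055 to 3120 in control and 1219 to 1826 in flotillin libraries, with the T cell gene CD3E at 0. Fibroblast markers gave 3 rises, DCN (9.12-fold), LUM (5.05-fold) and PDGFRB (3.052-fold), and 1 fall, COL1A1 (3.052-fold), among 6 tested, with a summed level of 553 to 1184 in control and 494 to 1939 in flotillin libraries over 8 genes without DCN, and THY1 at 0. Endothelial markers gave 0 calls among 2 tested in the authors' deposited table, with a summed level of 271 to 939 in control and 417 to 798 in flotillin libraries. Of the 14 cell cycle genes 0 were called in that table. The part of these cell states in the falls of the members was not tested.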

How the data were processed

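RNA from 3 control and 3 flotillin samples was sequenced from a stranded poly(A) library kit, per the labels' protocols. The submitters' processing notes list GRCh37, DESeq2 1.18.1, HTSeq 0.9.1, HISAT2 2.1.0 and bcl2fastq; which annotation release was used is not stated there. The first table deposited by the authors holds signal columns, the group means of size-factor-normalized reads as their values show, with log2 fold changes, p-values and adjusted p-values per the file headers. The second table deposited by the authors gives FPKM group values, log2 fold changes, a test score and q-values, per the file headers; its name points to the Tuxedo tools, for which no source here lists an aligner or versions. Its locus starts count from 0 and were raised by 1; a locus can join neighbouring genes.

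Reads per library were recovered by a search over whole numbers. In each group 99.7% of the means above 0 had exactly 1 solution. Altered means, tried as a check, were solved in 0.1% (control) and 0.05% (flotillin) of 2000 cases. The 106 genes without a solution hold 21.9% of control and 20.3% of flotillin normalized counts and include no member. Limma 3.58.1 (R 4.3.3, trend, robust, Benjamini-Hochberg adjustment) ran on log2(normalized count + 1) of all solved genes with an overall mean of at least 10, and was tested on simulated data. Limma's voom on the recovered reads and a limma fit with library 3 of both groups as a term were added after seeing the data; edgeR and other negative binomial models were not run. Intervals are exact binomial (Clopper-Pearson) on the reads and cover counting error only. Promoters come from RefSeq (GRCh38.p14) and transcripts from GENCODE 29 (GRCh38); their coordinates are not those of the GRCh37 tables. Tables used Python 3.11.15, pandas 2.3.3, scipy 1.17.1, biopython 1.88 and matplotlib 3.10.9.

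Members, gene lists and alternatives were chosen with earlier results of these data known. Every member with a group mean of at least 10 is described with its libraries, and from each list up to 4 called genes with the largest log2 fold changes are named. DSG1, LOR, CDSN, IVL as a substrate, ELANE, PRTN3, GZMM, CASP4, F2RL1, FN1, KRT5, KRT6A, ITGB4, KRT10 and the marker genes at 0 were named after their values were seen. The same holds for KRT8, KRT19, GRHL2 and CD68. Copies of genes on alternate chromosome 6 haplotypes were left out of the lists. KRT18 and PECAM1 were not matched in the first table, and CTSL and CTSV appear there as CTSL1 and CTSL2.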

Additional observations from a re-analysis of the deposited data

How the results depend on the processing

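No paired analysis was possible because no replicate numbers come with the recovered libraries, so no number could serve as a replicate block. Library 3 stands apart in both groups, and a limma fit with it as a term, chosen after seeing the data, gave 11 members lower (21.5% of all genes), SERPINB9 among them, and 1 higher, SERPINB5 (24.6%). In the limma fit without that term, 11.1% of all genes were lower and 12.2% higher. Voom, also added after seeing the data, gave 8 members lower and 0 higher. The second deposited table called 3 kallikreins and 2 clade B serpins lower in place of 7 and 4; the cause was not tested. An adjusted p under 0.01 left every family count within 1.5 times. In limma on the recovered libraries, 10 members were lower and 0 higher. A mean of at least 100 gave 3 lower, because only 7 members remain in that fit. Leaving out 1 library at a time gave 6 to 10 lower, with 6 without flotillin library 1, and 0 to 2 higher, with 2 without control library 3. Over all genes these shares moved too: without flotillin library 1, 4.05% were lower and 2.21% higher, and without control library 3, 18.3% and 22.0%. Without library 3 of both groups 3 members were higher (23.4% of all genes) and 8 lower (20.7%). The calls lost when 1 library was left out were those of KLK8, KLK10, SERPINB3 and SERPINB4. Dropping the filter gave 15 lower (6.28% of all genes), adding KLK9, KLK11 and KLK13 to the 12 falls. Of 177 alternative values for single members, 150 kept their direction and call, 20 lost the call, 7 gained one and 0 reversed. Depth limits the lowest members, whose flotillin libraries hold 0 to 4 reads.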

Other observations

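2 genes of the SPINK family carry older symbols in the table and fall outside the rule by name; they were singled out after their values were seen. SPINK5L3, called SPINK13 in the reference table of gene names, had 0 reads in the 3 control libraries and 3, 4 and 14 reads in flotillin libraries 1 to 3. It was at least 7.42-fold higher against the limit of 3 reads over the control group, leaving out the counting error of its flotillin reads. It passed as higher in the authors' deposited table (adjusted p = 0.0107, log2 fold change 2.33). The second table gives it a q-value of 0.0503, and it shares its locus there with SPINK7 and SPINK9. It is thus the 1 gene of these families that passed as higher in the table of means, while SPINK5 in the same cluster fell. SPINK5L2, called SPINK14 in the reference table, had no read. SERPINB11, listed as a polymorphic pseudogene inside the chromosome 18 cluster, had 4 reads in control and 4 in flotillin libraries.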
